A study of Mus musculus with 2 samples.

Results

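Apelin and endothelin are peptide signals of the vessel wall, and 5 of their genes were followed here among the 31053 genes of the files. The set was chosen by name, with earlier results of these data known. Apln encodes apelin, Aplnr its receptor, Edn1 endothelin-1, Ednrb the type B endothelin receptor and Ece1 the enzyme that cuts big endothelin to its active form. The cells were PECAM1-positive lung cells, sorted by that adhesion molecule of endothelium from C57BL/6 WT mice 6 h after they had been injected in the tail vein. The control library came from mice given PBS, and the metastatic library from mice given 200000 cells of the mouse melanoma line B16-F10, and control and metastatic cells below are the lung cells of these libraries. Each group was 1 library of 2 pooled mice, so no spread between replicates could be estimated, no test was made, and intervals (95%) cover counting error only.

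Apelin acts on a G protein-coupled receptor and takes part in vessel growth and vascular tone. Endothelin-1 is a strong vasoconstrictor made mainly by endothelium, while its type B receptor on endothelial cells clears the peptide and drives release of relaxing factors. In the alveolus, the capillary network is made of large aerocytes, which line the gas exchange surface, and of general capillary cells, which serve as their progenitors.

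The libraries held 67929614 (control) and 64733724 (metastatic) unique molecular identifiers (UMIs), each standing for 1 captured RNA molecule. Barcodes with 1000 to 5000 genes and under 20% mitochondrial UMIs were taken as cells, which gave 7134 and 6466. Cells were classed by 2 or more detected markers, none of them a gene described here. Aerocyte-like cells numbered 1176 and 962, general capillary-like cells 5196 and 4627, vein-like cells 256 and 305 and artery-like cells 64 and 61. Levels are given as UMI counts of the summed cells scaled to a total of 1000000 (CPM) within a class, a scale on which a gene can be compared between classes and libraries but not with another gene. Genes that the rule did not use were checked: Car4, Kdr, Pmp22, Cyp4b1 and Igfbp7 were highest in the aerocyte-like class, and Vwf, Vcam1, Nr2f2 and Amigo2 in the vein-like class. In the artery-like class 4 of 5 such genes were highest (Cxcl12, Efnb2, Hey1 and Dkk2). Cxcl12 was at 1543 and 1622 CPM there, against 355 and 438 CPM in general capillary-like cells. Hey1 was little higher there (325 and 306 CPM) than in general capillary-like cells (291 and 277 CPM). Dkk2 held only 4 and 2 UMIs in artery-like cells, so the check of this class rested mainly on Cxcl12 and Efnb2. The fifth gene, Sox17, was lower in artery-like cells (134 and 190 CPM) than in general capillary-like cells (204 and 272 CPM). The vein gene Vwf was at 1828 and 1525 CPM in artery-like cells. The check of general capillary-like cells was mixed, since Cd93, Plvap and Glp1r were highest there but Hilpda (748 and 611 CPM) was higher in artery-like cells (1200 and 868 CPM) and Aqp1 (686 and 618 CPM) in vein-like cells (1541 and 1318 CPM). Cell barcodes found in both libraries numbered 16, against 6.79 for unrelated lists.

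Barcodes far below the level of a cell were largely shared between the libraries. Of those with 11 to 50 UMIs, 15821 carried the same barcode in both libraries, against 101.3 for unrelated lists, which is 62.0% of the control and 58.6% of the metastatic ones. The melanocyte gene Dct reached 2271 CPM in them in the control library, whose mice received no melanoma cells, and 2247 CPM in the metastatic library. Among barcodes with over 1000 UMIs, Dct was at 0.655 and 1.17 CPM. The source of these molecules was not tested. Free RNA was therefore read from barcodes with over 100 and up to 500 UMIs in 1 library and at most 10 in the other, where Dct was at 6.73 and 8.27 CPM. By that profile free RNA made up 1.63 to 2.74% of the UMIs of a class.

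Apln (ENSMUSG00000037010), on chromosome X of GRCm38 (48025146 to 48034853, minus strand), was a gene of aerocyte-like cells. Its level there was 88.4 (82.7–94.5) for the control and 120 CPM (113–128) for the metastatic library. In general capillary-like cells it was 4.60 and 5.64 CPM, against 0.527 and 0.708 CPM that free RNA would give. The level in aerocyte-like cells was thus 19.2-fold (16.2–23.0) and 21.3-fold (18.2–25.2) that of general capillary-like cells. Vein-like cells held 11 and 5 Apln UMIs in all. Artery-like cells held 0, which allows up to 6.02 and 5.89 CPM.

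Ednrb (ENSMUSG00000022122, chromosome 14, 103814625 to 103844402, minus strand) was, like Apln, highest in aerocyte-like cells, where it was far above its level in the other classes. Aerocyte-like cells had 1184 (1163–1205) for the control and 1015 CPM (993–1037) for the metastatic library. General capillary-like cells had 32.2 and 27.4 CPM, of which free RNA would give 6.42 and 4.98 CPM. The aerocyte-like level was 36.8-fold (34.6–39.2) and 37.0-fold (34.5–39.7) that of general capillary-like cells. Artery-like cells (58.2 and 55.0 CPM) and vein-like cells (23.1 and 14.1 CPM) also lay low.

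Aplnr (ENSMUSG00000044338, chromosome 2, 85136225 to 85139923, plus strand), unlike its ligand, was highest in general capillary-like cells. Its level there was 37.0 (35.0–39.1) for the control and 56.8 CPM (54.1–59.5) for the metastatic library. Aerocyte-like cells had 9.29 and 17.8 CPM, so that general capillary-like cells were 3.99-fold (3.22–4.98) and 3.18-fold (2.69–3.78) higher. On the log2 scale these differences were 1.99 and 1.67, and they were 3.095 and 2.62 where class markers were read at 2000 UMIs. Vein-like cells followed with 13.5 and 21.1 CPM, which did not differ from aerocyte-like cells beyond counting error in either library. Artery-like cells held 3 and 4 Aplnr UMIs.

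Edn1 (ENSMUSG00000021367, chromosome 13, 42301476 to 42307990, plus strand) was highest in artery-like cells. It measured 536 CPM (473–604) there for the control and 709 CPM (637–786) for the metastatic library. General capillary-like cells followed with 287 and 355 CPM, then vein-like cells with 204 and 295 CPM, and aerocyte-like cells were lowest with 69.3 and 130 CPM. Each step of this order exceeded counting error in both libraries. Without the cells that held markers of another cell type, which left 5 control and 17 metastatic artery-like cells, the control difference of artery-like over general capillary-like cells was 0.21 on the log2 scale, against 0.90 with them.

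Ece1 (ENSMUSG00000057530, chromosome 4, 137862237 to 137965229, plus strand), which encodes the converting enzyme, was found in all 4 classes. Vein-like cells had 768 and 692 CPM, artery-like cells 708 and 648 CPM, general capillary-like cells 589 and 543 CPM and aerocyte-like cells 415 and 378 CPM. Vein-like and artery-like cells did not differ beyond counting error. The annotation places an antisense gene, Gm47118 for Edn1 and Gm13012 for Ece1, within the bounds of these 2 members.

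**Figure D1:**
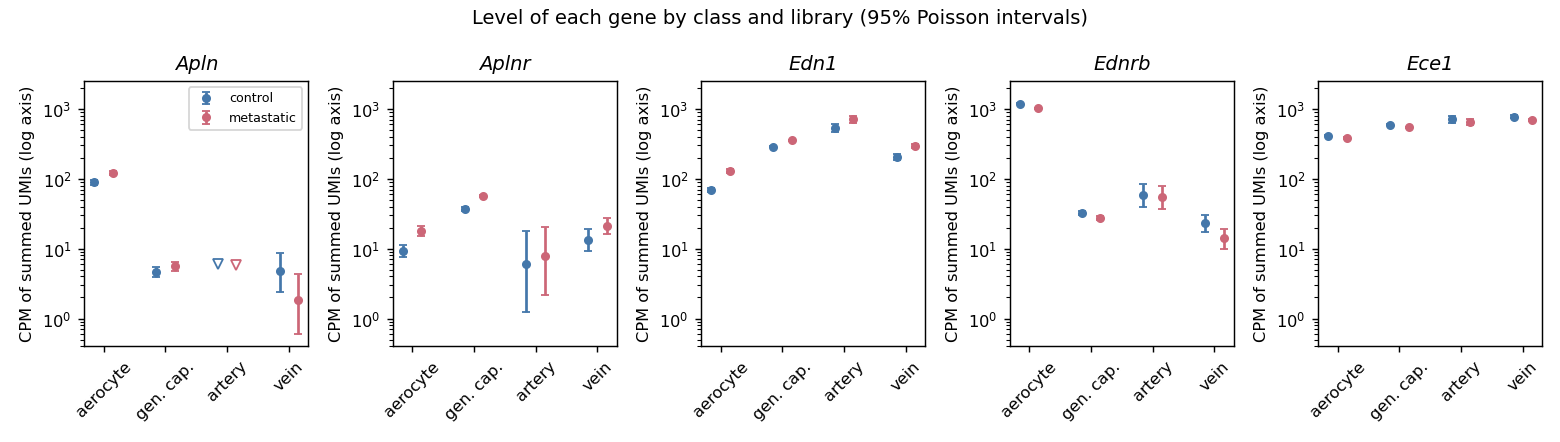
Level of each gene (CPM of summed UMIs, log axis, 1 common range) in 4 cell classes of the control (blue) and metastatic (red) library, with Poisson intervals (95%); open triangles mark the upper limit where no UMI was found. Apln and Ednrb stand highest in aerocyte-like cells, Aplnr in general capillary-like cells and Edn1 in artery-like cells.

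The classes were cut from a count of markers, so the levels were also followed along that count, from 0 to 4 aerocyte markers in a cell. Only general capillary-like and aerocyte-like cells entered, so the step from 1 to 2 markers was again the step between those classes. Near the limit lay 1187 control and 935 metastatic general capillary-like cells with 1 marker, and 371 and 291 aerocyte-like cells with 2. Apln climbed from 3.41 CPM at 0 markers to 112 CPM at 4 in the control library, and from 4.96 to 179 CPM in the metastatic library. Ednrb climbed from 24.3 to 1463 CPM and from 19.0 to 1295 CPM. Aplnr ran the other way, from 37.2 to 3.05 CPM (control) and from 58.7 to 10.6 CPM (metastatic), and so did Edn1, from 286 to 35.1 CPM and from 357 to 56.4 CPM. Ece1 went down less steeply, from 589 to 367 CPM (control) and from 540 to 336 CPM (metastatic). With 0 and 1 marker in the control library, Aplnr was at 37.2 and 36.4, Edn1 at 286 and 290 and Ece1 at 589 and 591 CPM. In the metastatic library Aplnr was at 58.7 and 50.0, Edn1 at 357 and 348 and Ece1 at 540 and 551 CPM. Most of the fall of these genes thus came from 1 marker on. Cells with more markers also held more UMIs, with medians of 5847 at 0 and 8847 at 4 markers in the control library, and the part of depth in the count was not tested.

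**Figure D2:**
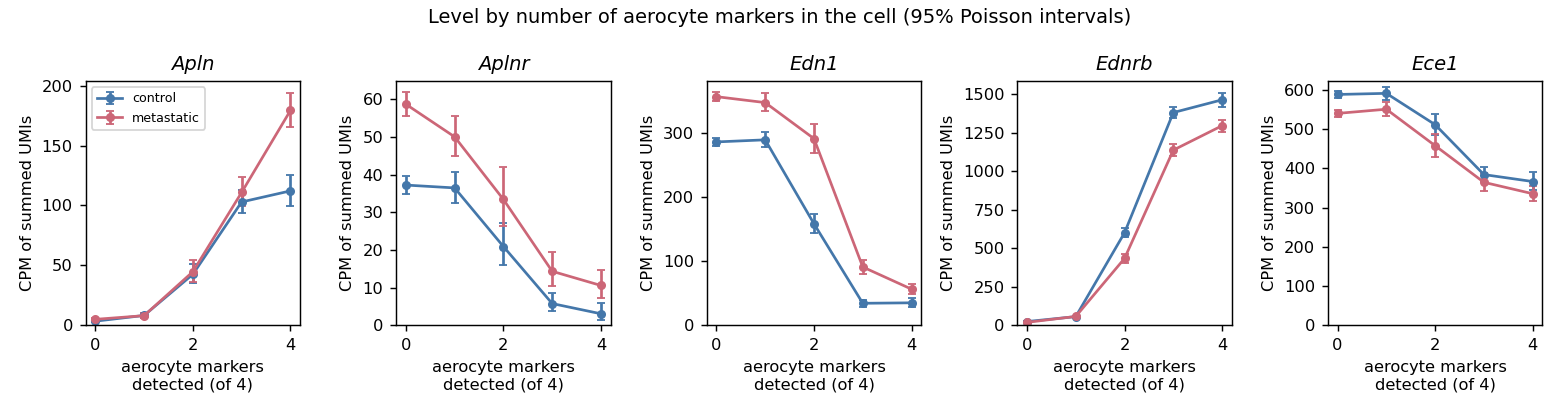
Level (CPM of summed UMIs) of each gene against the number of aerocyte markers detected in a cell, from 0 to 4, among general capillary-like and aerocyte-like cells of the control (blue) and metastatic (red) library, with Poisson intervals (95%). Apln and Ednrb climb with the count, and Aplnr, Edn1 and, less steeply, Ece1 go down, mainly from 1 marker on.

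The comparison between the libraries asked how the arrival of melanoma cells bears on these genes. A log2 ratio of 0.5 in either direction, among genes with at least 100 UMIs over both libraries in the class, served as a mark of size. In aerocyte-like cells 2 of the 5 genes were past it, Aplnr and Edn1, where 5.77% of all genes were. In general capillary-like cells 1 of 5 was past it, Aplnr, against 7.97% of all genes. In vein-like cells it was 1 of the 2 genes with enough UMIs, Edn1, against 8.53%, and in artery-like cells 0 of 2, against 12.7%. All of these were higher in the metastatic library, and the median of all genes lay between -0.00287 and 0.0239 on the log2 scale.

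Edn1, the ligand, was higher in the metastatic library in each class. The log2 ratio was 0.91 (0.77 to 1.05) in aerocyte-like cells, 0.53 (0.37 to 0.70) in vein-like cells, 0.40 (0.17 to 0.64) in artery-like cells and 0.31 (0.27 to 0.35) in general capillary-like cells. In aerocyte-like cells Edn1 was higher at each marker count. Edn1 was at 159 for the control and 292 CPM for the metastatic library with 2 aerocyte markers, at 34.4 and 91.1 CPM with 3, and at 35.1 and 56.4 CPM with 4. In artery-like cells few cells held much of the difference: Edn1 was at 480 and 516 CPM with 2 artery markers and at 740 and 2009 CPM in the 12 control and 6 metastatic cells with 3. Over the alternatives the artery-like ratio ran from 0.35 to 1.23, the highest from 5 control and 17 metastatic cells without markers of another cell type.

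Aplnr, the apelin receptor, was higher by a log2 ratio of 0.62 (0.51 to 0.72) in general capillary-like cells and of 0.94 (0.56 to 1.33) in aerocyte-like cells. In vein-like cells the ratio was 0.65, with an interval that held 0 (-0.0084 to 1.33). Its ligand Apln was higher by 0.44 (0.31 to 0.58) in aerocyte-like cells, short of the mark. In general capillary-like cells the Apln ratio was 0.29 (-0.03 to 0.61).

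Ednrb and Ece1 lay on the other side of 0. The log2 ratio of Ednrb was -0.22 (-0.26 to -0.18) in aerocyte-like cells and -0.23 (-0.36 to -0.10) in general capillary-like cells. In vein-like cells Ednrb was at -0.71 (-1.35 to -0.08), on 53 and 38 UMIs. Ece1 was at -0.14 (-0.20 to -0.07) in aerocyte-like, -0.12 (-0.15 to -0.09) in general capillary-like and -0.15 (-0.25 to -0.06) in vein-like cells. The ratios of Ednrb and Ece1 in aerocyte-like cells lay within the range that held the middle 95% of all genes there, which ran from -0.44 to 0.60. That of Apln lay within it too, and those of Aplnr and Edn1 above it. In general capillary-like cells the ratios of all 5 genes, Aplnr among them, lay within that range (-0.49 to 0.71). The ratio of Edn1 lay within it also in vein-like (-0.55 to 0.66) and artery-like cells (-0.66 to 0.70).

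Markers of other cell types moved beside these ratios. In general capillary-like cells the summed level of 4 erythroid markers was 1891 for the control and 805 CPM for the metastatic library, that of 6 epithelial markers 1865 and 1198 CPM and that of 4 platelet markers 167 and 271 CPM, with no marker of these lists at 0. In aerocyte-like cells the erythroid sums were 1418 and 906 CPM and the epithelial sums 1862 and 1108 CPM, with 1 epithelial marker at 0 in the metastatic library. In vein-like cells the epithelial sums were 199 and 3697 CPM those of 6 myeloid markers 32.6 and 610 CPM and those of the erythroid markers 434 and 1334 CPM. In artery-like cells the myeloid sums were 26.1 and 265 CPM, with 4 and 3 of the 6 markers at 0, and the platelet sums 14.0 and 165 CPM. The sums of 4 lymphatic markers were 2926 and 2289 CPM in general capillary-like and 1098 and 887 CPM in aerocyte-like cells. They were 4423 and 3350 CPM in vein-like and 6218 and 4552 CPM in artery-like cells, with 1 marker at 0 in the control artery-like cells. The part of such cells in the ratios was not tested. Without the cells that held 2 or more markers of another type, the ratio of Aplnr was 0.61 in general capillary-like and 0.69 in aerocyte-like cells and that of Edn1 0.49 and 1.65. The ratio of Apln in aerocyte-like cells was 0.13 without them, and that of Ednrb in vein-like cells turned from -0.71 to 0.72. This left 148 of 1176 and 210 of 962 aerocyte-like, 740 of 5196 and 1193 of 4627 general capillary-like and 56 of 256 and 107 of 305 vein-like cells. Most cells of these classes were thus left out, with a larger share of the control cells, so these values do not isolate the part of other cell types.

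**Figure D3:**
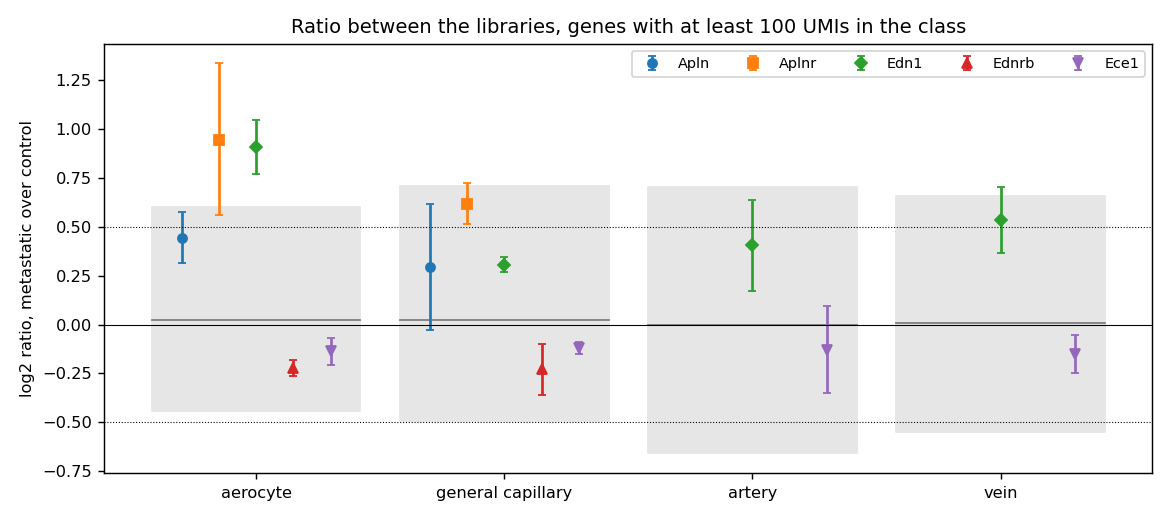
Log2 ratio of the metastatic to the control library for each gene with at least 100 UMIs in a class, with exact conditional binomial intervals (95%). Grey boxes span the middle 95% of all genes of the class with their median as a line, and dotted lines mark 0.5; Aplnr and Edn1 in aerocyte-like cells lie above the box.

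Shares of cells with a UMI were read after each cell had been thinned to 2000 UMIs. Apln was found in 14.4% of control and 20.02% of metastatic aerocyte-like cells, a difference of 5.63 percentage points (2.41 to 8.88). Aplnr was found in 6.37% and 9.92% of general capillary-like cells, a difference of 3.55 points (2.46 to 4.65), and Edn1 in 31.3% and 36.01%, a difference of 4.68 points (2.80 to 6.57). Ednrb was found in 76.2% and 71.2% of aerocyte-like cells, a difference of -5.02 points (-8.78 to -1.27). Unthinned, Apln was found in 37.7% and 45.1% of aerocyte-like cells and Aplnr in 18.1% and 24.96% of general capillary-like cells. At 1000 UMIs the difference for Apln was 1.82 points, with an interval that held 0 (-0.62 to 4.32). Unthinned, Ednrb was found in 87.8% and 86.7% of aerocyte-like cells, a difference of -1.06 points with an interval that held 0 (-3.95 to 1.77). As background, lymphocytes without a UMI of Pecam1, Cdh5 and Cldn5 were read. Unthinned, they still held 1 and 1 UMIs of the endothelial gene Tie1 and 3 and 6 of Egfl7. Thinned to 2000 UMIs, they showed Edn1 in 1 of 22 control cells (4.55%, 0.115 to 22.8) and in 0 of 24 metastatic cells. The other 4 genes were found in 0 of these thinned cells, and by 3 counts of the total a count of 0 allows a share of up to 13.6% in the control and 12.5% in the metastatic library. Unthinned, Ece1 was found in 3 of 25 metastatic lymphocytes, and Ednrb in 1 of 22 control and 1 of 25 metastatic ones. The median depth of the lymphocytes before thinning was 4175 and 4606 UMIs, against 7983 and 8253 in aerocyte-like cells.

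**Figure D4:**
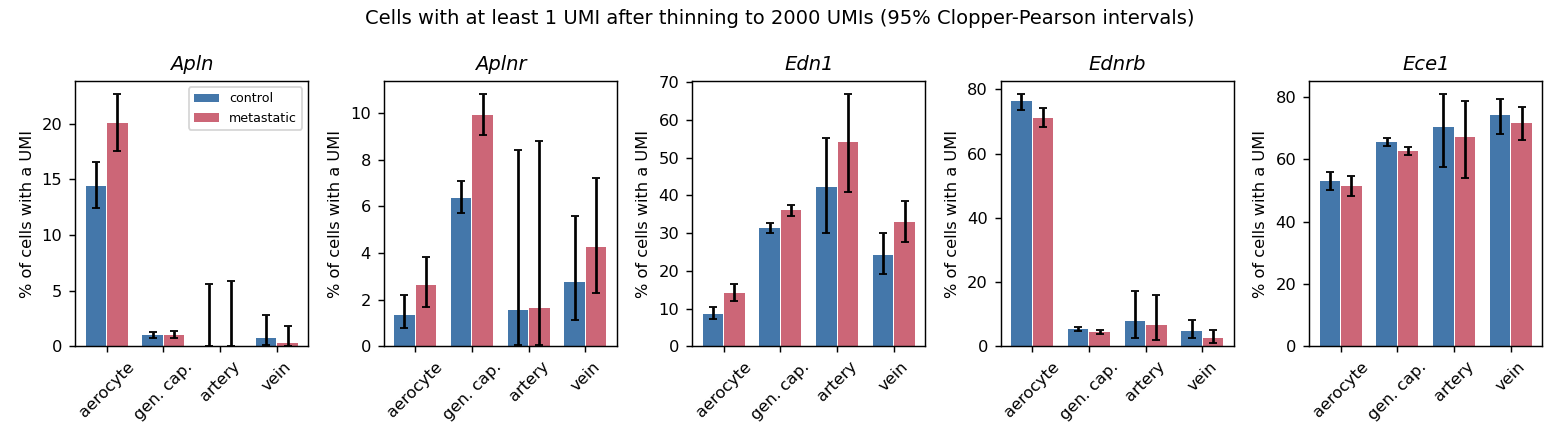
Percent of cells with at least 1 UMI of each gene after thinning to 2000 UMIs, by class, in the control (blue) and metastatic (red) library, with Clopper-Pearson intervals (95%). Apln and Ednrb are found mainly in aerocyte-like cells, and Aplnr reaches 9.92% in metastatic general capillary-like cells.

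Within single cells, Apln and Ednrb were found together in 12.7% of control and 16.9% of metastatic aerocyte-like cells. Ednrb was present in 88.2% of the control aerocyte-like cells with Apln and in 74.2% of those without it, and in 84.4% and 67.9% in the metastatic library. Apln and its receptor were found together in 0 of 1174 control and 1 of 959 metastatic aerocyte-like cells. These are 0% (0 to 0.314) and 0.104% (0.00264 to 0.580). If the genes were independent, 0.196% and 0.522% would hold both, and these shares lie within the intervals. Aerocyte-like cells with Edn1 had Ednrb in 47.1% (control) and 33.3% (metastatic), and those without Edn1 in 79.0% and 77.4%. Edn1 was found in 3.55% of control aerocyte-like cells with Apln and in 9.55% of those without, and in 5.21% and 16.3% in the metastatic library. Within the aerocyte-like class Apln and Ednrb were higher, and Edn1 lower, in cells with 4 than with 2 aerocyte markers. The part of this in the splits of aerocyte-like cells was not tested.

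The wider pathways were read from fixed lists. Of 7 other endothelin genes only Mme, a peptidase, had enough UMIs in general capillary-like cells, at a log2 ratio of -0.06, and none did in the other classes. Ednra, the type A receptor, held 34 and 20 UMIs in general capillary-like cells. Of 4 other apelin genes Furin, a proprotein convertase, was measured, at 0.19 (0.11 to 0.27) in general capillary-like, -0.07 (-0.26 to 0.11) in aerocyte-like and 0.08 (-0.29 to 0.45) in vein-like cells. Among 22 G protein and effector genes measured in aerocyte-like cells, 3 were past the mark, where 5.77% of all genes were, and all were higher: Rgs2, a regulator of G protein signals, at 1.13 (0.77 to 1.51), Plcb1, a phospholipase, at 0.60 (0.37 to 0.83) and Arrb2, a beta-arrestin, at 0.51 (0.10 to 0.92). In general capillary-like cells 0 of 25 were past it, against 7.97% of all genes. Of the immediate early genes, which tissue digestion can switch on, 4 of 13 were past the mark and higher in general capillary-like cells (Fosl1, Egr3, Atf3 and Nr4a1), against 7.97% of all genes. In the other classes the counts were 1 of 11 higher in aerocyte-like cells (Nr4a1, against 5.77%), 1 of 10 lower in vein-like cells (Egr3, against 8.53%) and 2 of 9 lower in artery-like cells (Fos and Egr1, against 12.7%). The part of these genes in the ratios of Edn1 and Aplnr was not tested.

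The genes most like each member over the 8 class levels (4 classes in 2 libraries, 7733 genes compared) were described by Pearson correlation of log2(CPM + 1). Apln was followed most closely by S1pr4, Trim16 and Pmp22 (0.987 to 0.985), Aplnr by Gna14, H2-Q7 and Mmp15 (0.995 to 0.974) and Edn1 by Usp16, Rftn1 and Zeb2 (0.988 to 0.977). Ednrb was followed by Ctsl, Lamc1 and Gdf15, and Ece1 by Tinagl1, Rpl35 and Gaa. The 8 levels share libraries and are not independent. A high correlation did not mean a like difference between the libraries. From control to metastatic aerocyte-like cells, Apln went from 88.4 to 120 and S1pr4 from 46.1 to 51.9 CPM, but Trim16 from 172 to 166 and Pmp22 from 1725 to 1468 CPM. Nor did it mean a like size of difference: control Edn1 was at 69.3 in aerocyte-like and 536 CPM in artery-like cells, and Usp16 at 60.1 and 84.3 CPM.

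The promoter of Edn1, the ligand that was higher in each class, is shown from 250 bases before to 30 after the RefSeq start site (GRCm38.p6, chr13:42301226-42301505, plus strand), with matches to GATAA and ACGTG on either strand in capitals.

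Edn1: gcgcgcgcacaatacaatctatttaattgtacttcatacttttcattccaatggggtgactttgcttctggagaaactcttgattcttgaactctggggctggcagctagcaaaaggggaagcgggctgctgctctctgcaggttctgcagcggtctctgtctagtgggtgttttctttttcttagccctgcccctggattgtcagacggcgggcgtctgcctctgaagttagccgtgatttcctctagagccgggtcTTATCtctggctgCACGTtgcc

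GATAA was found in 25.4% and ACGTG in 19.6% of the 32851 promoter windows of 300 bases. The AP-1 letters TGANTCA were in none of the windows of Apln, Edn1, Ednrb and Ece1 and in 7.81% of all windows. A variant of them, TGACTAA, was found once in the Edn1 window, from base 36 after the start site and so past the end of the printed stretch, in none of the Apln, Ednrb and Ece1 windows and in 2.35% of all windows. Such matches describe letters and not bound sites.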

How the data were processed

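Droplet (10x Genomics) libraries of PECAM1-sorted lung cells were used, 1 per group. The deposited values are raw UMI counts per gene and barcode, which the authors made with Cell Ranger on mm10 (version 3.1.0 per the file headers), with no cell calling. The annotation release was not given in the sources used here. The range of 1000 to 5000 genes is the one the study used for integration, and its first filter of 300 genes was an alternative here. Classes needed 2 markers: aerocyte Fibin, Tbx2, Rprml, Chst1; vein Slc6a2, Car8, Bst1; artery Gja5, Bmx, Fbln5; general capillary Gpihbp1, Kit, Lpl, Cd300lg with none of the other classes. Cells meeting several classes were kept apart, and doublets stayed in except in an alternative.

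Counts were summed per class and library and scaled to CPM with exact Poisson intervals. Ratios carry exact conditional binomial intervals, shares Clopper-Pearson and their differences Newcombe intervals. Python 3.11.15, SciPy 1.17.1 and edgeR 4.0.16 (for TMM factors) were used, and the ratio script was tested on simulated Poisson counts. These lack the spread between cells of the data. In unthinned aerocyte-like cells the variance of Edn1 over its mean was 5.21 (control) and 8.62 (metastatic), above that of Poisson counts. Named genes were the 5 members, the genes of the pathway lists and the 3 genes most like each member. Members and lists were chosen with earlier results of these data known. The profile of free RNA was replaced after the data were seen, because the barcodes with 11 to 50 UMIs were shared between the libraries.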

Additional observations from a re-analysis of the deposited data

Results flagged for a closer look

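Edn1 was higher in the metastatic library also outside the 4 classes compared. In the cells that met several classes it was at 437 CPM in the metastatic library (153 UMIs, 29 cells) and at 143 CPM in the control library (63 UMIs, 36 cells). In barcodes with over 100 and up to 500 UMIs, which are below the level of a cell, it was at 210.3 CPM in the metastatic and 173 CPM in the control library. These barcodes also gave the profile of free RNA, and Ece1 was at 343 and 376 CPM in them.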

How the results depend on the processing

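Over the alternatives, 188 main values stayed within the interval of the value reported or, for shares of all genes, within 1.5 times of it, 43 moved beyond that and 0 changed sign. Among the single values 168 stayed within their interval, 9 moved and 2 whose interval held no 0 changed sign. In artery-like cells, where the interval held 0, the ratio of Ednrb (-0.08) was 0.08 without doublets, 0.28 as a mean over cells and 1.85 without cells with other markers, and that of Ece1 (-0.13) was 0.10 with markers read at 2000 UMIs and 0.28 without cells with other markers. The cause of each move was not tested. With cells that held markers of another type left out, the log2 ratio was 0.13 for Apln in aerocyte-like cells, 0.49 for Edn1 and -0.18 for Ece1 in general capillary-like cells, and 0.72 (reversed) for Ednrb in vein-like cells, and the log2 level differences of the control library were 4.99 for Apln, 1.68 for Aplnr, 0.21 for Edn1, 5.33 for Ednrb (5.43 metastatic) and -0.68 for Ece1. With class markers read at 2000 UMIs, the level differences were 3.095 (control) and 2.62 (metastatic) for Aplnr, 1.17 (metastatic) for Edn1, 4.76 and 4.84 for Ednrb and -0.68 and -0.69 for Ece1, with ratios of -0.17 for Ednrb in aerocyte-like cells and 0.000635 (reversed) for Ece1 in vein-like cells. With general capillary-like cells free of other class markers, they were 4.58 (control) for Apln and 5.61 and 5.71 for Ednrb, with a ratio of 0.36 for Edn1. Without doublets they were 5.31 (control) for Ednrb and -0.57 and -0.59 for Ece1. Scaling by TMM gave -0.27 for Ednrb in aerocyte-like cells, and the median of ratios gave -0.27 for it and -0.16 for Ece1 in general capillary-like cells. Unthinned differences in shares were 6.81 points for Aplnr, 7.76 for Edn1 and -0.85 for Ece1 in general capillary-like cells and -1.06 for Ednrb in aerocyte-like cells, and at 1000 UMIs they were 1.61 for Aplnr in general capillary-like and 1.82 for Apln in aerocyte-like cells. The share of all genes past the mark was 3.33%, 4.83%, 7.22% and 5.36% (aerocyte-like, general capillary-like, artery-like, vein-like) with at least 500 UMIs.

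Added after the data were seen, a mark of 0.3 gave 16.8%, 18.4%, 32.9% and 25.1%, and subtraction of free RNA gave level differences of 5.51 and 5.48 for Ednrb. The planned subtraction with barcodes of 11 to 50 UMIs was not run, since these were largely shared between the libraries. The ratio of Aplnr in general capillary-like cells ranged from 0.58 to 0.62 and that of Edn1 in aerocyte-like cells from 0.68 to 1.65 over the alternatives. No paired analysis was possible because each group was 1 library, and for the same reason no replicate could be left out. Depth limits Apln and Aplnr in artery-like and vein-like cells.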

Other observations

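Among general capillary-like cells, those with Inhbb, a marker that the study gives for its reactive capillary cells, were read apart. At 2000 UMIs Edn1 was found in 10.3% (2.87–24.2) of 39 control cells with Inhbb and in 31.5% of 5079 without it. In the metastatic library the shares were 19.5% (13.6–26.5) of 159 cells and 36.6% of 4407 cells. Aplnr was found in 5.03% and 10.1% of the same metastatic cells. These cells come from 1 library per group, and no test was made.

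Along the artery markers, Edn1 went from 275 CPM in cells with 0 markers to 410 CPM with 1 in the control library, and from 347 to 434 CPM in the metastatic library. The 6 metastatic cells with 3 artery markers held 132 Edn1 UMIs, or 2009 CPM, of the 361 in the class.

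Melanocyte genes other than Dct were also present in the barcodes with 11 to 50 UMIs of both libraries, with Tyrp1 at 1730 for the control and 1705 CPM for the metastatic library and Mlana at 577 and 549 CPM. The cause was not tested.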
